A study of Mus musculus with 4 samples.

Results

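Distal convoluted tubule-like (DCT-like) cells made up 179 of the 1916 cells retained from mouse renal cortex, or 9.34%. Members were chosen by their own UMI counts: a cell was counted as DCT-like when it held at least 2 unique molecular identifiers (UMIs, each standing for 1 captured mRNA molecule) of Slc12a3 and Trpm6 together, and when that sum was above each of 3 competing sums in the same cell. The competing sums were Umod with Slc12a1 for the thick ascending limb (TAL), S100g with Klk1 for the connecting tubule (CNT), and Atp6v1g3 with Atp6v0d2 and Slc26a4 for intercalated cells (IC). Retained cells had 200 or more detected genes, at most 50% of UMIs from mitochondrially encoded genes, and a barcode with no unread base and no base present 11 or more times. The same form of rule gave 55 TAL-like, 394 CNT-like and 102 IC-like cells, and 1186 cells fell in none of the 4 classes.

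The material was renal cortex taken from 1 kidney per mouse, sieved, digested with collagenase IV and run through Drop-seq, a droplet method that tags each mRNA with a barcode of its droplet. Akita mice (C57BL/6-Ins2Akita/J) carry a mutant insulin gene and are a model of diabetes. They gave 2 libraries, from mice of 116 and 119 days of age, and Wild-type mice gave 2 libraries, from mice of 45 and 51 days. The labels name no treatment of either group. The labels give 24 weeks of housing and 8 mice per group, a housing time longer than any of these ages. Age ran with genotype, so the effects of genotype and age cannot be told apart in any comparison below. Ins2, the mutated gene, had 0 UMIs in all 4 files, so it gave no check of the labels, and no measure of blood glucose was analysed here.

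The distal convoluted tubule is the short nephron segment between the thick ascending limb and the connecting tubule. It takes up sodium chloride through the thiazide-sensitive cotransporter encoded by Slc12a3, whose activity is set by WNK kinases, the kinases SPAK and OSR1, and the ubiquitin ligase adaptor KLHL3. It is also the site of the final regulated reabsorption of magnesium, through the channel TRPM6, and it shares calcium transport with the connecting tubule. Its cells are rich in mitochondria and sodium pump.

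The depth of the 4 libraries was low. The retained cells numbered 311 and 600 in Akita replicates 1 and 2 and 564 and 441 in Wild-type replicates 1 and 2, with a median of 746.5 to 835 UMIs per retained cell. The DCT-like cells were deeper, with a median of 1240 UMIs against 664 in the cells of no class. They numbered 46, 46, 48 and 39 in the same order of libraries and held 110568, 81637, 106952 and 73918 UMIs. All levels below are CPM, that is, UMIs of a gene scaled to the UMI total of the summed cells, and intervals and limits from counts cover counting error only.

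The Wild-type replicate 1 file and the Akita replicate 2 file had 884 cell barcodes in common, whereas every other pair of files had 3 or 4. Of the DCT-like cells, 41 of 46 in Akita replicate 2 and 47 of 48 in Wild-type replicate 1 carried such a barcode. These came from 55 distinct barcodes, of which 33 were DCT-like in both files. In those 33, the rule sum had a median of 13 in the Akita file and 11 in the Wild-type file, and the Akita file held 0.392 to 2.00 times the sum of the Wild-type file. The other 22 were DCT-like in 1 file only. Of these, 16 had a sum of 2 or 3, none had 10 or more, and 19 had 0 or 1 UMI of the rule genes in the other file. These cells are therefore not independent samples of 2 mice, and the main values of Akita against Wild-type mice are given as deposited and again with each shared barcode kept only in the file that held relatively more of its UMIs, called the one-file setting below. That assignment is an assumption of this processing, with 363 barcodes kept in Akita replicate 2 and 521 in Wild-type replicate 1. Counted once over all 4 files, the DCT-like cells had 146 distinct barcodes.

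**Figure D1:**
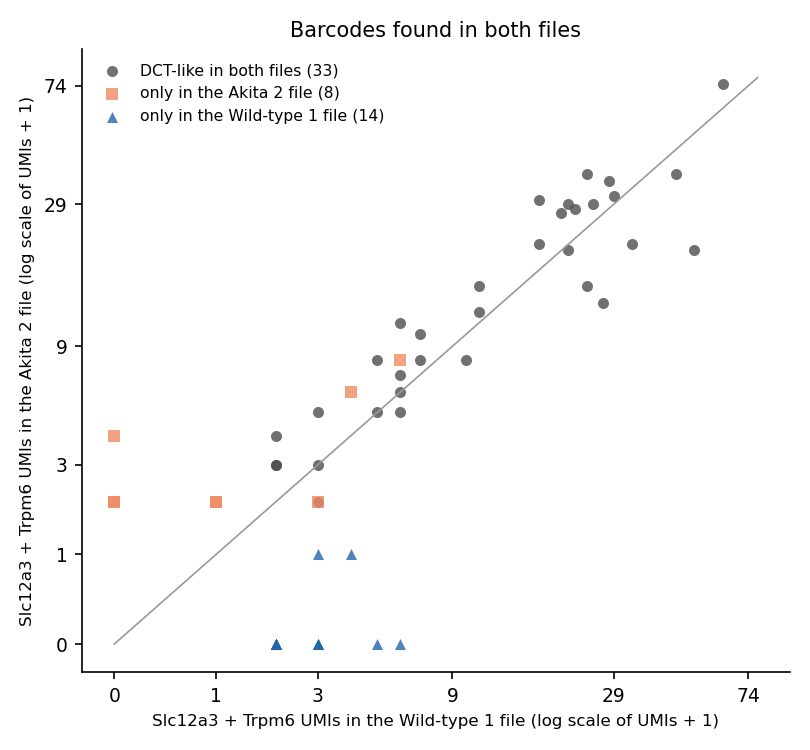
Slc12a3 + Trpm6 UMIs of each shared barcode that was DCT-like in at least 1 of the 2 files, with the Wild-type replicate 1 file on the x axis and the Akita replicate 2 file on the y axis (log scales of UMIs + 1; the line marks equal sums). The 33 barcodes that were DCT-like in both files lie along the line up to sums of 62 and 75, and the other 22 lie at low sums.

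The barcodes of the cells with the highest rule sum of each library are shown because the same string led both of those files. Each is written 5′ to 3′ in lower case.
Akita replicate 1, 139 rule UMIs of 16706 UMIs: cgccaccgcgtc
Akita replicate 2, 75 rule UMIs of 8881 UMIs: ggcgacttgggg
Wild-type replicate 1, 62 rule UMIs of 7012 UMIs: ggcgacttgggg
Wild-type replicate 2, 74 rule UMIs of 3050 UMIs: cgccgctaagtt
The leading DCT-like cells of those files thus bore the same barcode, with 2925 and 2509 detected genes.

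Some DCT-like barcodes also came in families that shared their first 11 bases and differed in the last base. Across the 4 libraries, 17 members belonged to 5 such families, a family found in 2 files being counted in each. With a difference of 1 base at any position, 46 members had another retained barcode that close in their file. By library these were 19 of 46, 7 of 46, 13 of 48 and 7 of 39, in the order used above. Only strings that differed in the last base were summed in the count given below. The family below, from Akita replicate 1, is shown because its 4 members had nearly equal depth, with the last base in capitals.
9 rule UMIs of 428 UMIs: cttaactcattA
14 rule UMIs of 512 UMIs: cttaactcattC
16 rule UMIs of 463 UMIs: cttaactcattG
15 rule UMIs of 417 UMIs: cttaactcattT
Another family of 4 stood in both of the files with shared barcodes, and in the order listed, its rule sums were 10, 15, 7 and 8 in the Akita file and 7, 11, 6 and 7 in the Wild-type file.
gctgggaacacA
gctgggaacacC
gctgggaacacG
gctgggaacacT
In each family the sums of all 4 strings were of the same order. With all retained strings that shared their first 11 bases summed and counted once, the members numbered 41, 43, 46 and 39, and the difference in their share of retained cells, Akita minus Wild-type, was 1.88 percentage points.

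The rule sum was strongly graded among the members. It had a median of 6 and reached 139, and 61 members had 2 or 3 rule UMIs, 50 had 4 to 9, and 68 had 10 or more. These bands were chosen after the data were seen. The 68 cells of the highest band held 2098 of the 2534 rule UMIs of all members. Slc12a3 gave 2495 of those UMIs and Trpm6 gave 39. Both genes were detected in 29 members, Slc12a3 alone in 150 and Trpm6 alone in 0, so in practice membership was set by Slc12a3. In GRCm38, Slc12a3 (ENSMUSG00000031766) lies on chromosome 8 from 94329201 to 94366214, plus strand, and Trpm6 (ENSMUSG00000024727) on chromosome 19 from 18749983 to 18892511, plus strand. Just inside the threshold stood 41 members with exactly 2 rule UMIs, and just outside stood 114 cells with 1 rule UMI and every competing sum at 0. Of the 353 retained cells that reached 2, 151 were below a competing sum and 23 were tied with one.

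Against the cells of no class, the markers of the label were high in the members with high sums and low in most of those with 2 or 3 rule UMIs. Calb1, Lhx1 and Sfrp1, which the label names as markers and the rule did not use, stood at 959, 793 and 1868 CPM in the members with 10 or more rule UMIs, as means of the 4 libraries. In members with 2 or 3 they stood at 47.3, 124 and 149 CPM, against 59.6, 57.0 and 126 CPM in the cells of no class, so that of the 3 only Lhx1 stood well above them in its mean, and it did so in 3 of the 4 libraries. Of the 3, only Lhx1 stood far above the neighbouring classes in the deep members: Sfrp1 stood at 2048 CPM in TAL-like cells and Calb1 at 592 CPM in CNT-like cells. In cells of those classes whose own sum reached 10, Sfrp1 stood at 2444 CPM (TAL-like) and Calb1 at 1358 CPM (CNT-like), both above the deep members. Transcripts of the proximal tubule went the other way. A list of 12 proximal tubule markers made up a median of 3.86% of the UMIs of members with 2 or 3 rule UMIs, 0.756% with 4 to 9 and 0.552% with 10 or more, against 4.30% in the cells of no class. Kap, an androgen-regulated kidney protein of the proximal tubule, stood at 35311, 22070 and 5685 CPM over the 3 bands and at 38040 CPM in the cells of no class. As means of the 4 libraries, the 12 markers summed to 7664 CPM in the deep members and 12244 CPM in TAL-like cells. In CNT-like cells they summed to 52198 CPM, near the 57653 CPM of the cells of no class. In CNT-like cells whose own sum reached 10 they still summed to 41988 CPM. The 61 members with 2 or 3 rule UMIs are called DCT-like here by the rule only. They were 19 of 46 and 9 of 46 members of Akita replicates 1 and 2, and 17 of 48 and 16 of 39 members of Wild-type replicates 1 and 2.

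**Figure D2:**
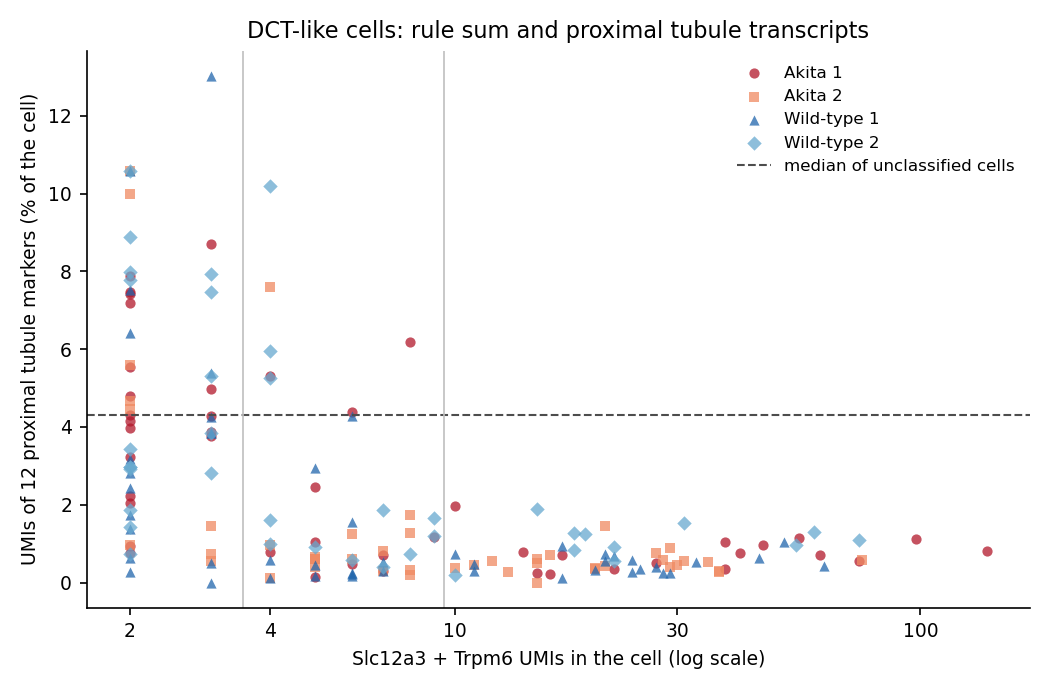
Each point is 1 DCT-like cell, with its Slc12a3 + Trpm6 UMIs on the x axis (log scale) and the percentage of its UMIs from 12 proximal tubule markers on the y axis, by library. Grey lines separate the bands of 2 to 3, 4 to 9 and 10 or more, and the dashed line is the 4.30% median of cells of no class; no cell with 10 or more is above 1.97%.

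The other cell types of the cortex left little trace. Of the marker lists measured in all members, 4 of 4 fibroblast or mesangium genes, 5 of 6 endothelial genes, 2 of 4 podocyte genes and 4 of 7 immune genes were at 0, and the summed level of each list stayed at or below 40.6 CPM in every library. In the 68 members with 10 or more rule UMIs, all 6 endothelial and all 7 immune genes were at 0, in 165234 UMIs, a depth at which a count of 0 allows up to 18.2 CPM. Haemoglobin transcripts, from red blood cells, ranged from 54.3 to 147 CPM over the libraries. The 8 intercalated-cell markers together ranged from 46.7 to 244 CPM.

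The markers of the neighbouring segments were present at lower levels. The rule allowed the genes of a competing sum up to any total below the rule sum. In 102 members a competing sum reached 2 or more UMIs, most often S100g with Klk1 (79 members) or Umod with Slc12a1 (56), and rarely that of intercalated cells (4). Umod, the uromodulin secreted by the thick ascending limb and the early distal convoluted tubule, stood at 1190 CPM in all members and at 2164 CPM in those with 10 or more, against 6182 CPM in TAL-like and 196 CPM in CNT-like cells. Slc12a1, the furosemide-sensitive cotransporter of the thick ascending limb, stood at 27.8 CPM in members with 10 or more and at 1608 CPM in TAL-like cells. These values are a description with no test, as both genes belong to the rule. Cldn16, a claudin of the thick ascending limb, was at 0 in all members, as were Trpv5, Scnn1g and Hsd11b2 of the connecting tubule; in 373075 UMIs a count of 0 allows up to 8.04 CPM.

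Calcium-binding and Wnt-related markers showed how the deep members varied among themselves. Of the 68 members with 10 or more rule UMIs, 38 had a UMI of Calb1 (calbindin-D28k, a cytosolic calcium buffer), 45 of Lhx1 (a LIM homeobox transcription factor), 52 of Sfrp1 (a secreted Wnt antagonist) and 18 of Trpm6. Parvalbumin, Pvalb, the calcium-binding protein known from the early part of the segment, was detected in 34. Of these 68 members, 39 carried a barcode found in 2 files. The counts are thus of cells as deposited and not of distinct barcodes. Of the 1186 cells of no class, 4.30% had a UMI of Calb1, 5.06% of Lhx1, 8.43% of Sfrp1 and 1.69% of Pvalb, at a median of 664 UMIs against 1499.5 in those 68. At a common depth of 500 UMIs the expected share with a UMI was 33.6% for Calb1, 36.1% for Lhx1, 46.4% for Sfrp1 and 24.5% for Pvalb in the deep members, against 2.34%, 3.16%, 4.65% and 1.01% in the cells of no class that reached that depth. TAL-like cells had 19.5%, 4.18%, 51.3% and 22.7%, and CNT-like cells 21.3%, 6.50%, 25.6% and 1.74%, so Sfrp1 and Pvalb were shared with TAL-like cells and Calb1 in part with both classes. The same shares in members with 2 or 3 rule UMIs were 2.92%, 7.82%, 7.43% and 4.22%.

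Pvalb and Calb1 were often found in the same deep members. Both were detected in 25 cells with a median of 2320 UMIs, Pvalb alone in 9 with 1961, Calb1 alone in 13 with 1060 and neither in 21 cells with 1048, so the cells with Pvalb were the deeper ones. S100g, the calcium buffer calbindin-D9k used in the CNT sum, stood at 433 CPM where Pvalb alone was detected and at 2556 CPM where Calb1 alone was detected, from 8 and 43 UMIs. Umod ran the other way, at 2705 and 1843 CPM, from 50 and 31 UMIs. Egf, which was also high in TAL-like cells, did not follow Umod, at 2218 and 4101 CPM, from 41 and 69 UMIs. Where both or neither of Pvalb and Calb1 were detected, S100g stood at 838 and 1303 CPM and Umod at 2340 and 1725 CPM. These cells were sorted after their values were seen and their counts are small, so the values are a description. Of the 25 cells with both genes, 10 came from Akita replicate 2 and 8 from Wild-type replicate 1, the files with shared barcodes. The numbers of cells are therefore not numbers of distinct barcodes.

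Several regulators of the sodium chloride cotransporter stood at a higher level in the deep members than in the other classes, among them Wnk1, Wnk4 and Klhl3. The TAL-like, CNT-like and IC-like cells here had any own sum of 2 or more, so the threshold of 10 was not applied to them. The same holds for the class levels of the gene groups below, except where an own sum of 10 is named. Slc12a3 stood at 7335 and 7938 CPM in Akita members and at 5535 and 6007 CPM in Wild-type members, against 280 CPM in cells of no class and 1660 CPM in TAL-like cells, a contrast that the rule itself fixed. Wnk1, whose kidney-specific form is a hallmark of this segment, stood at 1112, 1654, 1253 and 1502 CPM in the order Akita 1, Akita 2, Wild-type 1 and Wild-type 2. Its mean over the bands was 240 CPM at 2 or 3 rule UMIs, then 1211 and 2336 CPM, against 1391 CPM in TAL-like, 454 CPM in CNT-like and 167 CPM in cells of no class. These counts do not separate the forms of Wnk1. Klhl3, which marks WNK kinases for degradation, had the same gradient, with 71.2, 512 and 1045 CPM over the bands and 315 CPM in TAL-like cells, and 434 CPM in CNT-like cells whose own sum reached 10. Wnk4, the kinase that switches SPAK on, stood at 326 CPM in the members with 10 or more and at 83.2 CPM in TAL-like cells. Stk39, which encodes SPAK, and Ppp1r1a, the phosphatase inhibitor 1, stood at 240 and 1226 CPM in those members and at 222 and 1344 CPM in TAL-like cells, so these last genes did not separate DCT-like from TAL-like cells.

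Magnesium genes were present in unequal measure. Trpm6, the rule gene, had 9, 10, 14 and 6 UMIs in the members of the 4 libraries, or 81.4, 122, 131 and 81.2 CPM. Its relative Trpm7, a channel and kinase that can join with TRPM6, stood at 1295 CPM in members with 10 or more rule UMIs, against 497 CPM in TAL-like, 256 CPM in CNT-like and 179 CPM in cells of no class. Egf, the growth factor precursor whose loss impairs magnesium reabsorption, stood at 3293 CPM there and at 3709 CPM in TAL-like cells, and was at 316 CPM or below in the other classes. Cnnm2, a magnesium transport protein of the basolateral membrane, reached 112 CPM in the deep members and 81.0 CPM in TAL-like cells. Kcna1, a potassium channel tied to magnesium uptake, was at 0 in every class.

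Slc8a1, the basolateral sodium-calcium exchanger, had 4 UMIs in all members, and Trpv5, the apical calcium channel, had 0. Atp2b1, a plasma membrane calcium pump, stood at 441 CPM in members with 10 or more and at 254 to 295 CPM in the other 4 classes. Kl, the FGF23 co-receptor Klotho, stood at 338 CPM in those members, 308 CPM in TAL-like, 281 CPM in CNT-like and 56.4 CPM in IC-like cells.

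Atp1b1 and Kcnj10 stood at levels in the deep members nearer to those of TAL-like than of CNT-like cells. Atp1b1, the beta subunit of the sodium pump, stood at 6706 CPM in members with 10 or more, 7617 CPM in TAL-like and 2628 CPM in CNT-like cells. Kcnj10, the basolateral potassium channel Kir4.1, stood at 512, 689 and 110 CPM in the same order. CNT-like cells also held many proximal tubule transcripts, and what these contribute to the contrast was not tested. The aldosterone-related genes were low: Scnn1a, a sodium channel subunit, stood at 93.4 CPM and Nr3c2, the mineralocorticoid receptor, at 31.1 CPM in members with 10 or more.

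Some transcription factors and secreted genes of the distal nephron were high in the deep members. Lhx1 stood at 793 CPM in the deep members and at no more than 111 CPM in the other 4 classes, or 193 CPM in CNT-like cells whose own sum reached 10. It stood at 124 and 141 CPM in the lower bands. Emx1, a homeobox factor, stood at 417 CPM against 184 CPM in TAL-like and 81.3 CPM in CNT-like cells, and Tfap2b, an AP-2 factor of the distal nephron, at 318 against 207 and 55.6 CPM. Tfcp2l1, a factor of intercalated and collecting duct cells, stood at 158 CPM there and at 1032 CPM in IC-like cells. Tmem52b, a small membrane protein, stood at 3590 CPM in the deep members, 2386 CPM in TAL-like and 541 CPM in CNT-like cells. Defb1, an antimicrobial peptide of the distal nephron, and Wfdc15b, a secreted protease inhibitor, stood at 3359 and 2479 CPM there and at 3298 and 3485 CPM in TAL-like cells.

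**Figure D3:**
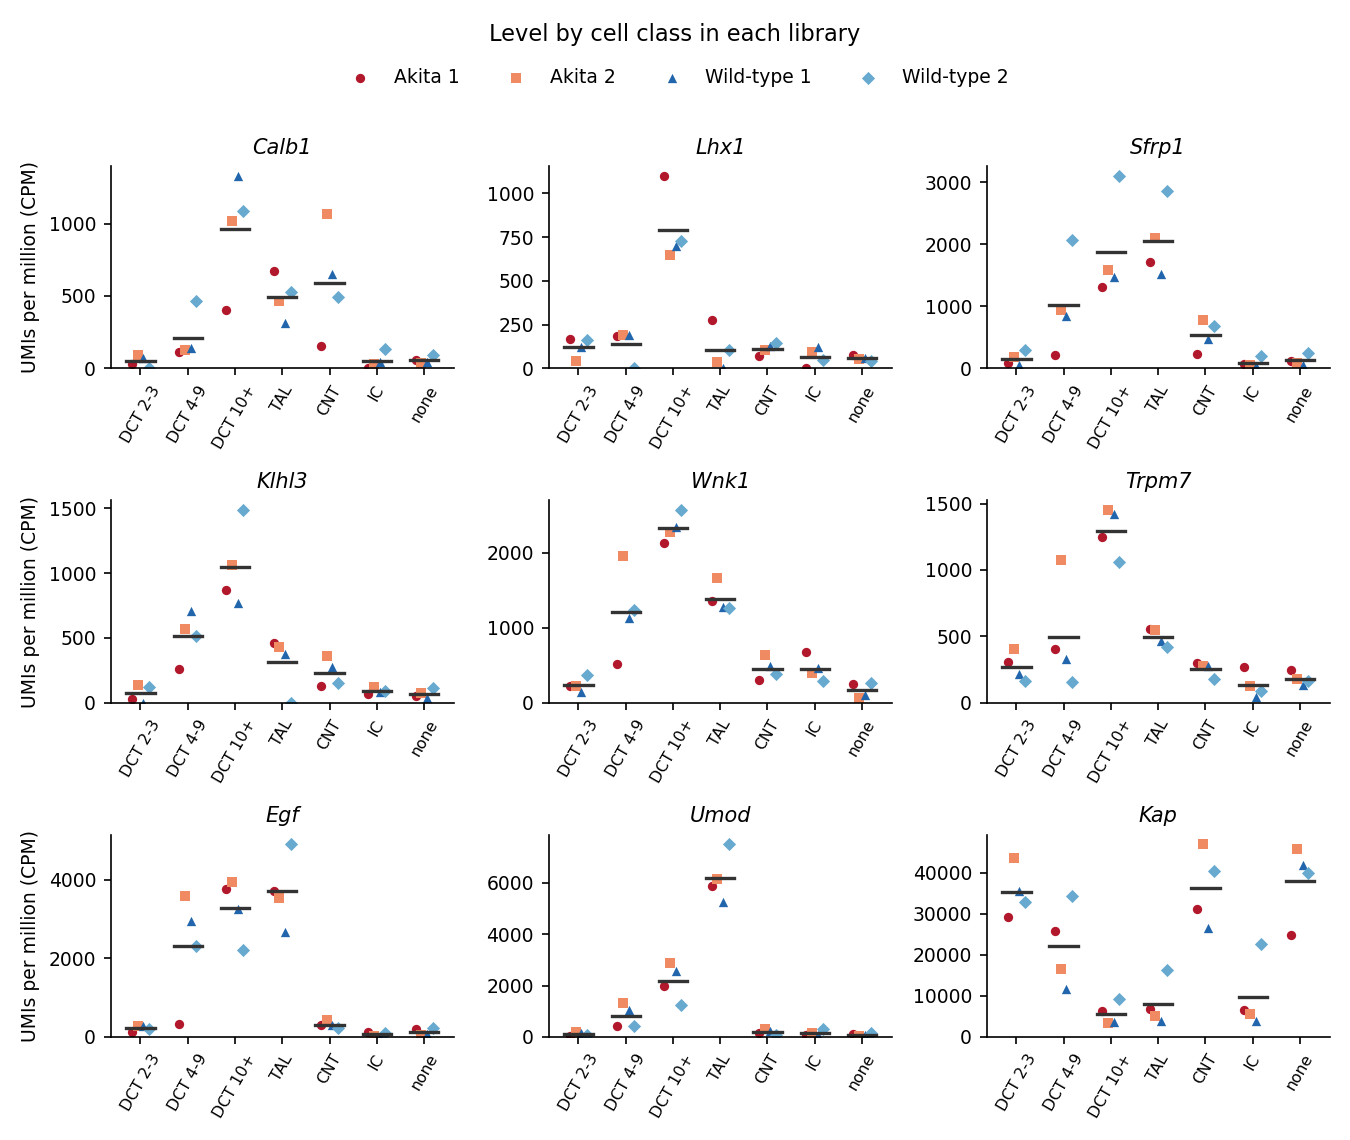
Level in CPM of 9 genes in each library (points) and their mean over the 4 libraries (lines), for DCT-like cells with 2 to 3, 4 to 9 and 10 or more rule UMIs, for TAL-like, CNT-like and IC-like cells, and for cells of no class. Of the classes plotted, the mean of Lhx1, Klhl3, Wnk1, Trpm7 and Calb1 is highest in the members with 10 or more, Sfrp1, Egf and Umod are shared with TAL-like cells, and Kap is high in members with 2 to 3 and low in those with 10 or more.

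Beyond the lists, the 15 genes with the highest ratio of the mean level in members to that in the next class were mostly detected at a low level. They were Foxred2, n-R5-8s1, Gm17767, Shank1, 1700007L15Rik, Slc12a3, Plrg1, Lhx1, Cacnb4, Epb41l3, Tsc22d2, Trim12a, Tmem186, Chka and Vps35l. Chka, a choline kinase, had 23, 18, 12 and 15 UMIs in the members of the 4 libraries and stood at 186 CPM in members against 61.3 CPM in the next class. Foxred2, a flavoprotein of the endoplasmic reticulum, had 11 UMIs over all members, with 1, 3, 5 and 2 by library, and Cacnb4, a calcium channel subunit, had 21. Plrg1 stood at 101 CPM in members with 2 or 3 rule UMIs and at 11.4 CPM in the deep members, from 13 and 2 UMIs. The same ranking over the deep members, against classes whose own sum reached 10, was led by Foxred2, Gm17767, Tubb2b, Arrb1, Mr1 and Rap1gap, and Slc12a3, Epb41l3, Tsc22d2 and Chka stood in its first 15 too. These ranks were taken from the cells that the rule chose and carry no test.

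The share of DCT-like cells did not separate the genotypes. DCT-like cells were 14.8% of retained cells in Akita replicate 1 (95% exact binomial interval 11.04 to 19.2%), 7.67% in Akita replicate 2 (5.67 to 10.1%), 8.51% in Wild-type replicate 1 (6.34 to 11.1%) and 8.84% in Wild-type replicate 2 (6.36 to 11.9%). Akita replicate 1 was the highest and Akita replicate 2 the lowest, so the groups overlapped. The mean was 11.2% ± 5.04 in Akita and 8.68% ± 0.235 in Wild-type mice (SD, n = 2 each), a difference of 2.55 percentage points (exact two-sided permutation test, p = 1). In the one-file setting it was 3.62 points (exact p = 0.667). Without Akita replicate 1 the difference was -1.01 points. As a share of the 4 distal classes together, DCT-like cells were 36.5% and 22.3% for Akita and 25% and 18.9% for Wild-type mice, a difference of 7.45 points (exact two-sided permutation test, p = 0.667, n = 2 each), and 0.364 points without Akita replicate 1. With 2 libraries against 2, the smallest p this test can give is 0.3333. The labels give 1 mouse per library, and p-values measure only the spread between these 4 libraries.

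Among members with 10 or more rule UMIs, where the markers stood above the cells of no class, the libraries were ordered by genotype. They were 5.14% and 3.67% of retained cells for Akita and 3.37% and 2.49% for Wild-type mice, from 16, 22, 19 and 11 cells. The mean was 4.41% ± 1.05 in Akita and 2.93% ± 0.618 in Wild-type mice (SD, n = 2 each), and the exact two-sided permutation test gave its smallest possible p of 0.3333. The 95% intervals of all 4 libraries overlapped, with bounds of 2.97 to 8.22%, 2.31 to 5.50%, 2.04 to 5.21% and 1.25 to 4.41%. Of these 68 cells, 39 carried a barcode found in both the Akita replicate 2 and Wild-type replicate 1 files. As deposited, the order of those 2 libraries thus rests largely on the same barcodes. Once a shared barcode was counted in 1 file only, the shares of members with 10 or more were 5.14%, 3.70%, 2.27% and 2.49%. In a further setting, cells under 500 UMIs were left out, leaving 223, 429, 461 and 329 retained cells, which were thinned to 500 UMIs. The groups were also apart in that setting and when rule UMIs had to make up 0.3% of the cell. They overlapped under the other alternatives on the rule, the filters and the barcodes. The thresholds of 10 and of 0.3% were chosen after the data were seen. They cut on the rule's own UMIs, and Slc12a3 itself stood higher in the members of both Akita libraries. The shares above these thresholds are thus a description. A share can move with the recovery of the other cells, which was not tested.

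**Figure D4:**
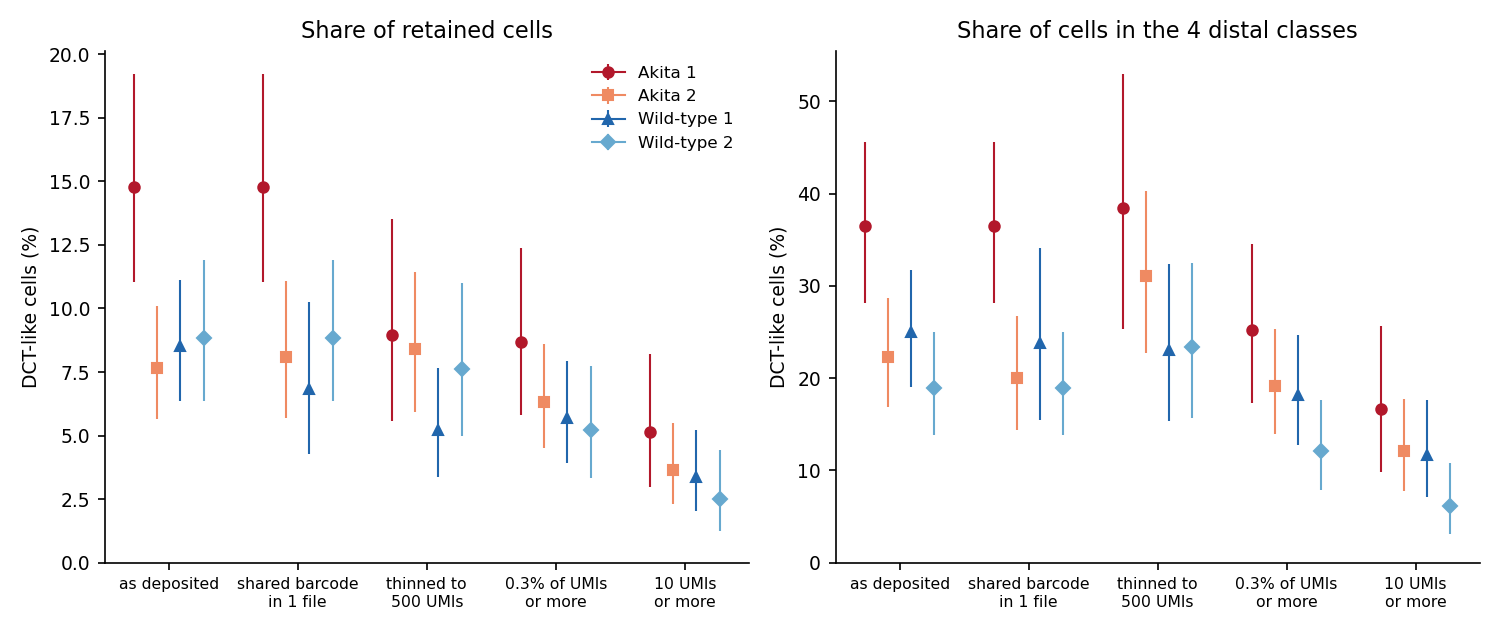
Percentage of DCT-like cells in each library among retained cells (left) and among the cells of the 4 distal classes (right), as deposited and under 4 alternatives, with 95% exact binomial intervals. Akita replicate 1 is highest throughout, and Akita replicate 2 lies above both Wild-type libraries only in the last 3 settings.

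No gene passed the test between Akita and Wild-type mice in the summed DCT-like cells. UMIs of all members were summed per library and 1575 genes passed the filter on low counts. By edgeR's quasi-likelihood test with Benjamini-Hochberg adjustment, 0 genes were higher and 0 were lower in Akita at an adjusted p under 0.05, so the percentage called was 0 in each direction. At an unadjusted p under 0.05 there were 19 genes, against 2 with DESeq2 and 14 with limma-voom, each of which also called 0 after adjustment. The median standard error of a log2 fold change was 0.42, so the fit could not resolve modest differences. Without regard to the test, both Akita libraries lay above both Wild-type libraries for 211 genes (13.4%) and below them for 167 (10.6%), and these percentages are the background for every count of separated genes below.

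The genes with the smallest p at a mean of at least 300 CPM did not pass the test. Higher in Akita were ENSMUSG00000095041, a gene with no symbol in the reference table (log2 fold change 1.28 ± 0.45, SE), Cbx5, a heterochromatin protein (0.70 ± 0.31), Pnn, a splicing-related desmosome protein (0.73 ± 0.33), Igf1r, the receptor for insulin-like growth factor 1 (0.61 ± 0.33), and Atpif1, the inhibitor of the mitochondrial ATP synthase (0.48 ± 0.29). Lower were Miox, the proximal tubule enzyme of inositol breakdown (-0.78 ± 0.30), Cyba, a subunit of NADPH oxidase (-0.72 ± 0.32), Fut9, a fucosyltransferase (-0.67 ± 0.33), Mrpl42, a mitochondrial ribosomal protein (-0.68 ± 0.35), and Park7, a redox-sensitive chaperone (-0.60 ± 0.32). For each of these 10 genes the Akita libraries lay apart from the Wild-type libraries and the adjusted p from edgeR was 1.00. In the one-file setting the signs of all 10 were the same, with Cbx5 at 1.32, Miox at -1.21 and Cyba at -1.27. In members with 10 or more rule UMIs, Pnn was at 0.24, and in members with 2 or 3 it stood at 1239 CPM in Akita replicate 1 and at 218 to 267 CPM in the other libraries. Cbx5 stood at 470 and 465 CPM in the Akita members and at 309 and 257 CPM in the Wild-type members.

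Several of these genes, in both directions, stood at a higher level in the members with few rule UMIs. Miox stood at 742 and 600 CPM in the Akita members and at 1113 and 1191 CPM in the Wild-type members. By band, however, Miox stood at 1668 CPM in members with 2 or 3 rule UMIs and at 362 CPM in those with 10 or more, against 2225 CPM in the cells of no class. Cyba went from 868 to 63.3 CPM and Fut9 from 604 to 83.0 CPM over the same bands. Of the higher group, Igf1r went from 419 to 200 CPM, Atpif1 from 1187 to 599 CPM and ENSMUSG00000095041 from 440 to 283 CPM. Mrpl42 went the other way, from 297 to 460 CPM, as did Cbx5, from 113 to 652 CPM. The summed proximal tubule markers were at 30217 and 23788 CPM in the Akita members and at 28938 and 32225 CPM in the Wild-type members, and of the 9 such markers tested, 6 had a negative log2 fold change, with a median of -0.18 and 1 apart (Miox). What these transcripts contribute to the differences was not tested.

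Sodium chloride genes gave 0 calls among the 6 tested, of which 2 lay apart with Akita higher: Slc12a3, the rule gene, and Wnk4. Slc12a3 had a log2 fold change of 0.39 ± 0.26 (SE), which is a description, since Slc12a3 chose the cells. It was 0.83 with each shared barcode kept in 1 file and 0.33 in members with 10 or more rule UMIs, where the libraries stood at 14958, 12412, 10982 and 11163 CPM. Wnk4 had 31, 17, 15 and 15 UMIs, or 280, 208, 140 and 203 CPM, and a log2 fold change of 0.54. Klhl3 (-0.12), Wnk1 (-0.01) and Ppp1r1a (0.11) were near 0 as deposited and at 0.46, 0.35 and 0.94 in the one-file setting. The median of the 6, Slc12a3 among them, was 0.25, beside 0.00 for all genes tested. It was 0.81 with each shared barcode kept in 1 file and 0.08 in members with 10 or more. As Slc12a3 chose the cells, these medians are a description too.

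Magnesium and calcium genes gave no call and no separated gene among the 5 and 6 tested, with medians of -0.05 and -0.04. These lists include the rule genes Trpm6 and S100g. In the one-file setting the medians were 0.42 and 0.16, and in members with 10 or more rule UMIs they were 0.06 and -0.45. Trpm6 had a log2 fold change of -0.13 ± 0.53, Trpm7 of 0.49 ± 0.33 and Egf of 0.32 ± 0.34, the last 2 at 0.82 and 0.73 in the one-file setting. Egf stood at 1736 and 2866 CPM in the Akita members and at 2048 and 1583 CPM in the Wild-type members, so the groups overlapped. Calb1 (-0.62 ± 0.44) and Pvalb (-0.50 ± 0.54) were low in 1 Akita library only. Calb1 stood at 208 CPM in Akita replicate 1 and at 588, 608 and 568 CPM in Akita replicate 2 and Wild-type replicates 1 and 2, and Pvalb at 136 CPM and at 539, 365 and 555 CPM. Without Akita replicate 1 the log2 fold change of Calb1 was -0.04 and that of Pvalb was 0.22.

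Akita replicate 1 stood apart in other distal genes too, also in the members with 10 or more rule UMIs. In those members Calb1 was at 402 CPM, and at 1015 to 1330 CPM elsewhere, Pvalb at 296 against 699 to 1123 CPM, and Defb1 at 1798 against 3807 to 3930 CPM. Other genes were highest in that library: Lhx1 at 1100 against 646 to 727 CPM, Emx1 at 635 against 231 to 462 CPM, Tmem52b at 4760 against 2939 to 3383 CPM, and Krt7, an epithelial keratin, at 423 against 67.7 to 138 CPM. This library came from 1 mouse, and these genes were picked after their values were seen, so no test was made. It shared at most 4 barcodes with any other file. Its band of 10 or more rule UMIs held 16 cells and 47265 UMIs, of which 1 cell gave 16706. In the same band of Wild-type replicate 2, 1 cell gave 13723 of 30278 UMIs. How far single cells set these levels was not tested.

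The 7 pump and channel genes tested had a median log2 fold change of -0.02, and of 0.22 in the one-file setting, with 0 called and 0 apart. Atp1b1 stood at 3446 and 5978 CPM in the Akita members and at 5142 and 3869 CPM in the Wild-type members, a log2 fold change of 0.04 ± 0.34. Kcnj10 (-0.06) also lay near 0 with overlapping groups. Standard errors of this size leave room for differences in either direction.

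The 5 transcription factors tested all had a positive log2 fold change, with a median of 0.30, also over the 3 tested in the one-file setting, and 0 were called. Lhx1 had 63, 32, 40 and 26 UMIs, or 570, 392, 374 and 352 CPM, and a log2 fold change of 0.41 ± 0.33. It lay apart with Akita higher, and without Akita replicate 1 the log2 fold change was 0.07. Tfcp2l1 also lay apart, at 127 and 171 CPM against 93.5 and 108 CPM (log2 fold change 0.54). Tfap2b (0.30), Pou3f3 (0.16) and Emx1 (0.08) overlapped.

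Of 11 structural and secreted genes tested, 4 had a positive and 7 a negative log2 fold change, with a median of -0.11, or -0.08 in the one-file setting, and 0 called. Tmem52b stood at 2107 and 2278 CPM in the Akita members and at 1776 and 1420 CPM in the Wild-type members (0.44 ± 0.29). Wfdc2, a secreted protease inhibitor-like protein, stood at 371 and 220 CPM against 196 and 162 CPM (0.72), and both genes lay apart with Akita higher. Cdh16, the kidney cadherin, lay apart with Akita lower (-0.61). Sfrp1 stood at 642 and 1078 CPM in the Akita members and at 795 and 1908 CPM in the Wild-type members (-0.66 ± 0.45), so the groups overlapped and 1 Wild-type library was high.

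Only 2 genes of the list on insulin signalling and glucose response had enough UMIs to be tested. Txnip, which is known to be induced by glucose, had 15, 13, 12 and 1 UMIs in the members, or 136 and 159 CPM in Akita and 112 and 13.5 CPM in Wild-type mice. Its log2 fold change was 1.05 ± 0.68, and 0.36 without Wild-type replicate 2, which holds the lowest value. Igf1r stood at 362 and 367 CPM against 196 and 284 CPM. Both lay apart with Akita higher and neither was called. Insr, the insulin receptor, had 7 UMIs in all members and was not tested.

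Energy metabolism showed small differences with no call. Of the 32 nuclear-encoded oxidative phosphorylation genes tested, 8 had a positive and 24 a negative log2 fold change, with a median of -0.07, and 1 lay apart (Atp5a1, a subunit of the ATP synthase, at -0.28). Once a shared barcode was counted in 1 file only, the median was 0.02. The 13 mitochondrially encoded genes tested had a median of -0.04, or 0.09 in the one-file setting, and the 8 glycolysis genes a median of -0.10, or -0.13. Gapdh, a glycolytic enzyme, stood at 1031 and 1200 CPM in the Akita members and at 1533 and 1326 CPM in the Wild-type members (-0.38 ± 0.29) and lay apart, as did Pgk1 (-0.21) and, with Akita higher, Aldoa (0.14). Of the immediate early and heat shock genes, which often mark dissociation stress, 4 were tested, with a median of -0.05, or 0.12 in the one-file setting, and 0 were called or apart. The only aldosterone-related gene tested, Fkbp5, had a log2 fold change of -0.01.

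**Figure D5:**
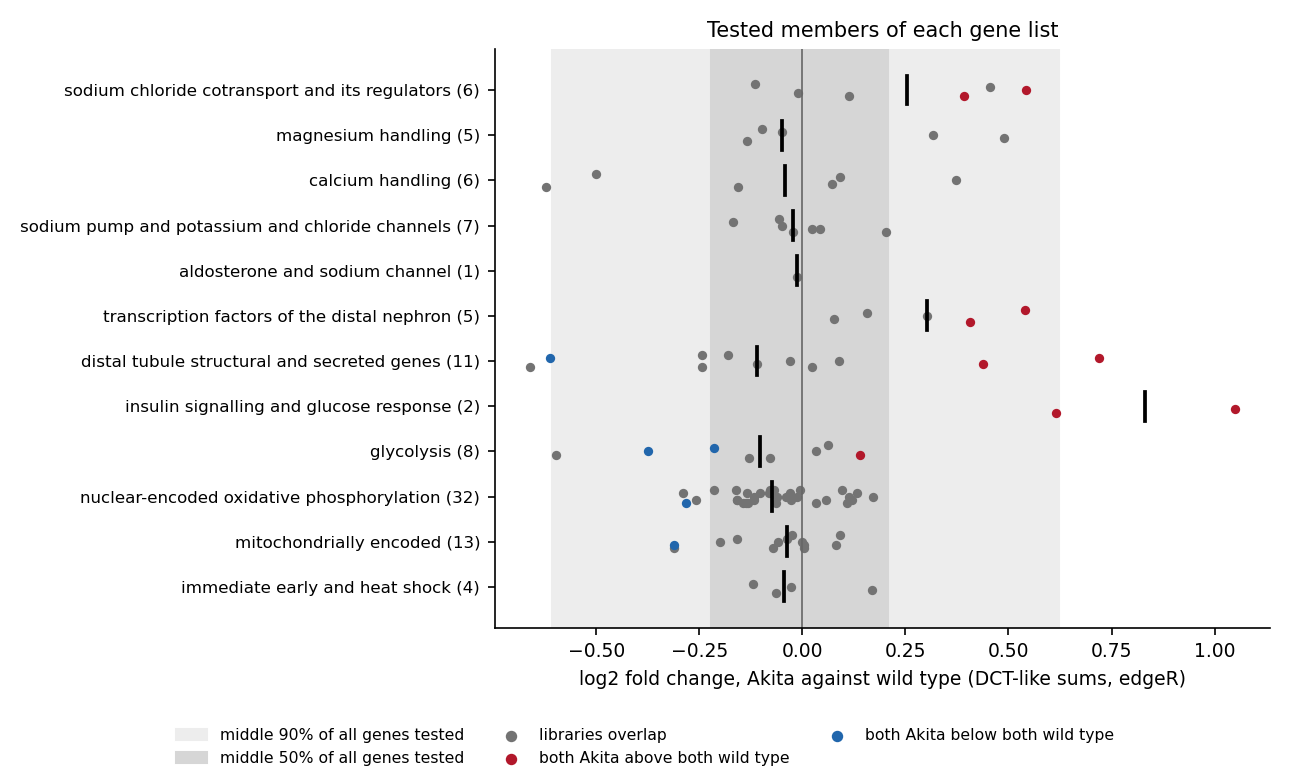
Log2 fold change of Akita against Wild-type mice in summed DCT-like cells (x axis, edgeR) for the tested members of each list, with their number in brackets and the median as a black bar. Red points have both Akita libraries above both Wild-type libraries, blue points below, and grey bands show the middle 50% and 90% of the 1575 genes tested; no gene was called.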

How the data were processed

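The labels' protocols describe Drop-seq of renal cortex, with a cell barcode of 12 bases and a UMI of 8 bases. The deposited values are raw counts of UMIs for each gene in each barcode. Per the submitters' processing notes, featureCounts 1.6.0, STAR 2.5.2b and UMI-tools 0.5.3 were used with GRCm38. Each file lists 1998 or 2000 barcodes, of which 4 held an unread base or 11 or more equal bases. Of 22078 gene identifiers, 22046 matched a symbol in the GENCODE table for GRCm38.

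Members and lists were chosen with earlier results of these data known. Doublets were not called; leaving out members with 2 or more UMIs of a competing sum served as the alternative. Counts of members were summed per library and tested with edgeR 4.0.16 (TMM normalization, filterByExpr, quasi-likelihood fit, Benjamini-Hochberg adjustment over 1575 genes, threshold 0.05), with DESeq2 1.42.0 and limma 3.58.1 as alternatives, in R 4.3.3. Other steps used Python 3.11.15, pandas 2.3.3 and scipy 1.17.1. The edgeR fit was tested on simulated data. Members were compared with other cells without a test, since the rule chose them.

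Named genes were to be those past the threshold with separated groups. As none passed, the 5 per direction with the smallest p at a mean of at least 300 CPM were named. The rule also named the rule genes and markers, the 4 most abundant genes of each list, and the 15 leading genes. Any other gene was named after its values were seen. Some genes that the rule names are not reported here. Thinning to 500 UMIs used 1 seeded draw in the cells that had at least 500 UMIs. Shares expected at 500 UMIs were computed from each cell's counts. After removal of group means, same-numbered libraries correlated at r = -0.252 over 1575 genes and the crossed pairs at r = 0.252. With 2 libraries per group these values mirror each other by construction. The crossed pairs include Akita replicate 2 with Wild-type replicate 1, which had 884 barcodes in common, so the correlation cannot settle the pairing. Replicate numbers were used only to name the libraries and were not taken as pairs.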

Additional observations from a re-analysis of the deposited data

How the results depend on the processing

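With 2 libraries per group, 179 members and 884 barcodes found in 2 files, these data resolve only large differences. The difference in the share of retained cells kept its sign in the alternatives run, except that it was -1.01 points without Akita replicate 1; leaving out 1 library gave -1.01 to 6.11 points, and 0.364 to 14.5 points for the share of distal classes. The number of genes called was 0 in each direction in most of the 23 alternatives, DESeq2 and limma-voom among them, and in edgeR with the replicate block (0 higher, 0 lower) and the crossed replicate block added after seeing the data (0 and 0). Leaving out 1 library gave 0 to 2 genes higher and 0 to 1 lower: Nuak2 and ENSMUSG00000095041 higher and Gm15848 lower without Akita replicate 2, and Gm15848 lower without Wild-type replicate 1. The lone library is then assumed to vary like the others. With rule UMIs at 0.3% or more of the cell, 1 gene was lower (Gm15848, log2 fold change -1.96, adjusted p = 0.0273), while a replicate block combined with shared barcodes counted in 1 file gave 1 lower gene (Dnase1, -2.12, adjusted p = 0.0338). The cause was not tested. Gm15848 had 2 and 13 UMIs in the Akita members and 10 and 40 in the Wild-type members, so the groups overlapped. So did those of Dnase1, at 1402 and 2082 CPM in the Akita and 3815 and 379 CPM in the Wild-type members as deposited, and the replicate numbers were not taken as pairs. Alternatives that left out cells tested fewer genes: 577 without shared barcodes and 435 without members holding competing UMIs. Of 54 named genes tested, 36 changed sign in at least 1 alternative, in none of which either value was called.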
